A study of Mus musculus with 6 samples.

Results

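Endothelial cells line the blood vessels, and the 40 genes described here are ones known to be expressed in them, taken to follow the capillaries of the stria vascularis. Every probe set (a group of short probes that measures a transcript) whose annotated symbol was exactly one of these genes was taken, which gave 65 probe sets of 39 genes. For Ly6a the annotation used here lists no probe set, so it was not analysed here. After a filter on the mean signal over all arrays, 58 of the 65 were tested, among 27022 in all. The brightest tested probe set stood for its gene, so the 39 genes were read among 12421 named ones. The 7 probe sets left out were weak further probe sets of Angpt2, Calcrl, Cdh5, Podxl, Ptprb and Sox7, and a pair that names both Ramp2 and its neighbour Vps25 was left out by the symbol rule.

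Total RNA was isolated from stria vascularis dissected from the cochlea of mice at postnatal day 10. There were 3 arrays of mice heterozygous for Slc26a4 (replicates 1, 3 and 5) and 3 of Slc26a4 knockout mice (replicates 2, 4 and 6). Slc26a4 encodes the anion exchanger pendrin, and the study asked how its loss alters expression in this tissue. The heterozygous controls also lack a working copy, and no wild-type array was analysed here. The labels name neither strain nor sex, nor do they say whether an array came from 1 animal or a pool, so p-values measure only the spread between these samples, which may be in part technical. Slc26a4 itself gave signals of 221, 248 and 1006 in the heterozygous arrays and 75.5, 106 and 154 in the knockout arrays. The groups did not overlap, and Slc26a4 was not called at a threshold of 0.05 (limma adjusted p = 0.371). Whether its probe set lies in the deleted part is not stated by the labels.

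The stria vascularis is an epithelium crossed by a dense bed of capillaries, whose tight endothelium, with pericytes and resident macrophages around it, forms the blood-labyrinth barrier. These vessels feed the potassium secretion that makes the endocochlear potential. Endothelial identity rests on adherens and tight junctions (Cdh5, Cldn5), on VEGF and angiopoietin receptors (Kdr, Flt1, Tek), and on transcription factors of the ETS and SOX families (Erg, Fli1, Sox17, Sox18).

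The set holds 8 defining endothelial markers, Pecam1, Cdh5, Cldn5, Tie1, Tek, Kdr, Emcn and Esam. Being members themselves they are no outside check on the set. All 8 passed the filter on the mean over all arrays, though Pecam1 in knockout replicate 4, at 44.0, was below the filter signal of 46.3. Their summed signal was 4857, 8178 and 5376 in heterozygous replicates 1, 3 and 5 and 5073, 2256 and 6889 in knockout replicates 2, 4 and 6. The sum was lowest in knockout replicate 4. Mean signals of the 39 genes ran from 57.3 for Apln to 5334 for Aplnr, with a median of 501, in the arbitrary units of the array, in which different genes cannot be ranked by abundance. Of the lymphatic vessel markers, 2 of 4 on the array passed the filter. These were Lyve1, at 19.3 to 88.5, and Pdpn, at 4412 to 5211, which other cell types also express, while the regulator Prox1 did not pass and had a highest signal of 53.4. No marker measured here places these vessels inside the stria rather than in tissue dissected with it.

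The endothelial genes stood low together in 1 array, knockout replicate 4. The deviation of a gene in an array is used here for its log2 signal minus the mean of the other 5 arrays. In knockout replicate 4 the median deviation of the 39 genes was -1.12, which is a signal 2.18-fold lower than on the other arrays, and 38 of 39 lay below the other arrays. Over all 12421 named genes the median deviation there was -0.09, and 59.0% lay below. It was the lowest array for 34 of the 39 (87.2%), against 36.2% of all named genes. A deviation of -1 or lower was found for 22 of the 39 (56.4%), against 3.13% of all named genes. Against the other pair of knockout arrays alone, all 39 were lower in replicate 4, by a median of -1.15 on the log2 scale. In a bulk sample such as this one, fewer endothelial cells and less RNA per endothelial cell cannot be told apart. Other sources of a drop in this 1 array were not tested.

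**Figure D1:**
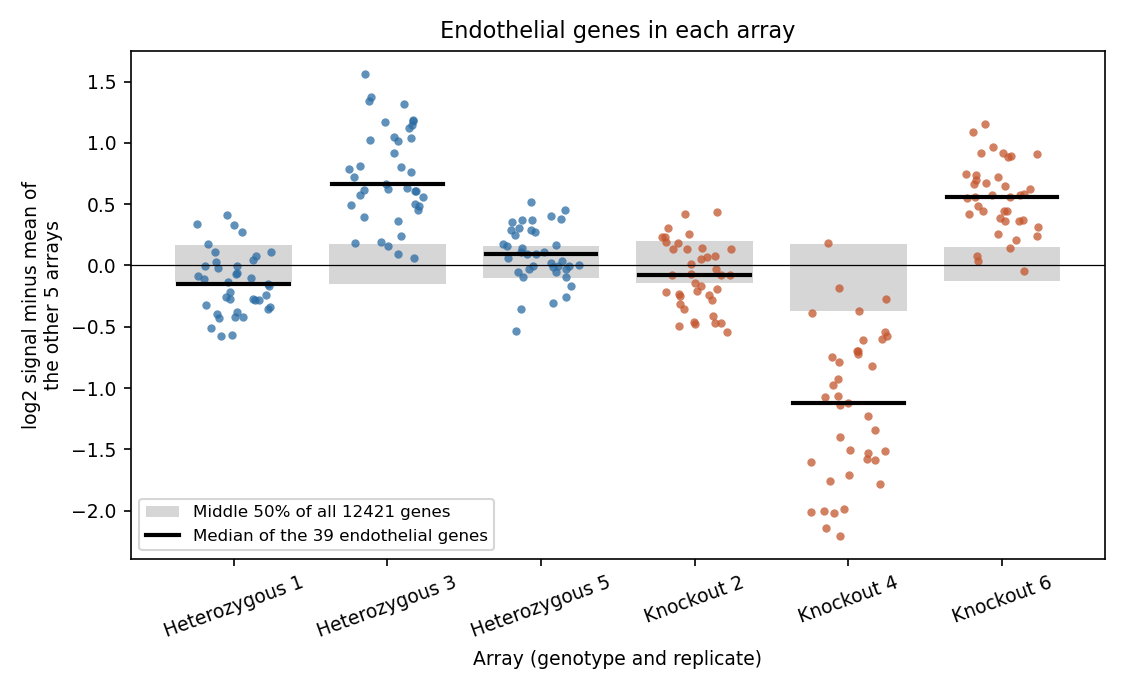
Each point is 1 of the 39 endothelial genes in 1 array, plotted as its log2 signal minus the mean of the other 5 arrays, with the black line at the median and the grey band spanning the middle 50% of all 12421 genes. The median lies at -1.12 in knockout 4, at 0.66 in heterozygous 3 and at 0.56 in knockout 6, and within 0.15 of 0 in the remaining arrays.

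The genes farthest down in that array code for surface and junction proteins and for a vessel matrix protein. Emcn (endomucin, a sialomucin of capillary and venous endothelium) gave 938, 1783 and 1238 in heterozygous replicates 1, 3 and 5 and 871, 244 and 1279.9 in knockout replicates 2, 4 and 6. Replicate 4 stood alone at the bottom, knockout replicate 2 lay just under the heterozygous range and replicate 6 within it. With a deviation of -2.20, Emcn was the 11th lowest of all 12421 named genes there. Mmrn2 (multimerin 2, an endothelial matrix protein) read 559.8, 1569 and 915 against 618, 193 and 1194, in the same order of arrays. Its knockout replicates 2 and 6 fell inside the heterozygous range and replicate 4 far under it, at a deviation of -2.14.

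For Esam, a tight-junction adhesion molecule, the heterozygous signals were 824, 943 and 781 and the knockout signals 772, 198 and 973. Apart from replicate 4 these arrays were close together, and the groups overlapped. S1pr1, the receptor for sphingosine-1-phosphate that steadies endothelial junctions, had signals of 155, 174 and 148 in heterozygous and 182, 32.3 and 245 in knockout arrays. Here the knockout group held both the lowest and the highest array, since replicates 2 and 6 exceeded every heterozygous array. Pecam1 (CD31, the junctional adhesion molecule most used to mark endothelium) gave 215, 275 and 172 against 206, 44.0 and 273. Its knockout replicates 2 and 6 fell within the heterozygous range, and replicate 4 was far under it.

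The same shape held for other members that define the cell type. Cdh5, which encodes VE-cadherin of the adherens junctions, read 359, 813 and 401 in heterozygous and 463, 222 and 626 in knockout arrays. Cldn5, the main tight-junction claudin of barrier endothelium, read 856, 1241 and 810.1 against 1096, 351 and 1192. In both, replicate 4 was the lowest array and the other knockout arrays lay within the heterozygous range. Flt1, a VEGF receptor that acts largely as a decoy, read 1383, 2576 and 1229 against 1372, 686 and 2852, with knockout replicate 6 the highest of all. This was its brightest probe set, at a deviation of -1.34 in replicate 4. The other tested probe sets of Flt1 were at -0.13, -0.93 and -0.06 there, so not all of them shared the drop. Tek, the angiopoietin receptor TIE2, read 1026, 2218 and 1327 against 941, 455 and 1442. Knockout replicate 2 of Tek was under the heterozygous range as well as replicate 4.

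**Figure D2:**
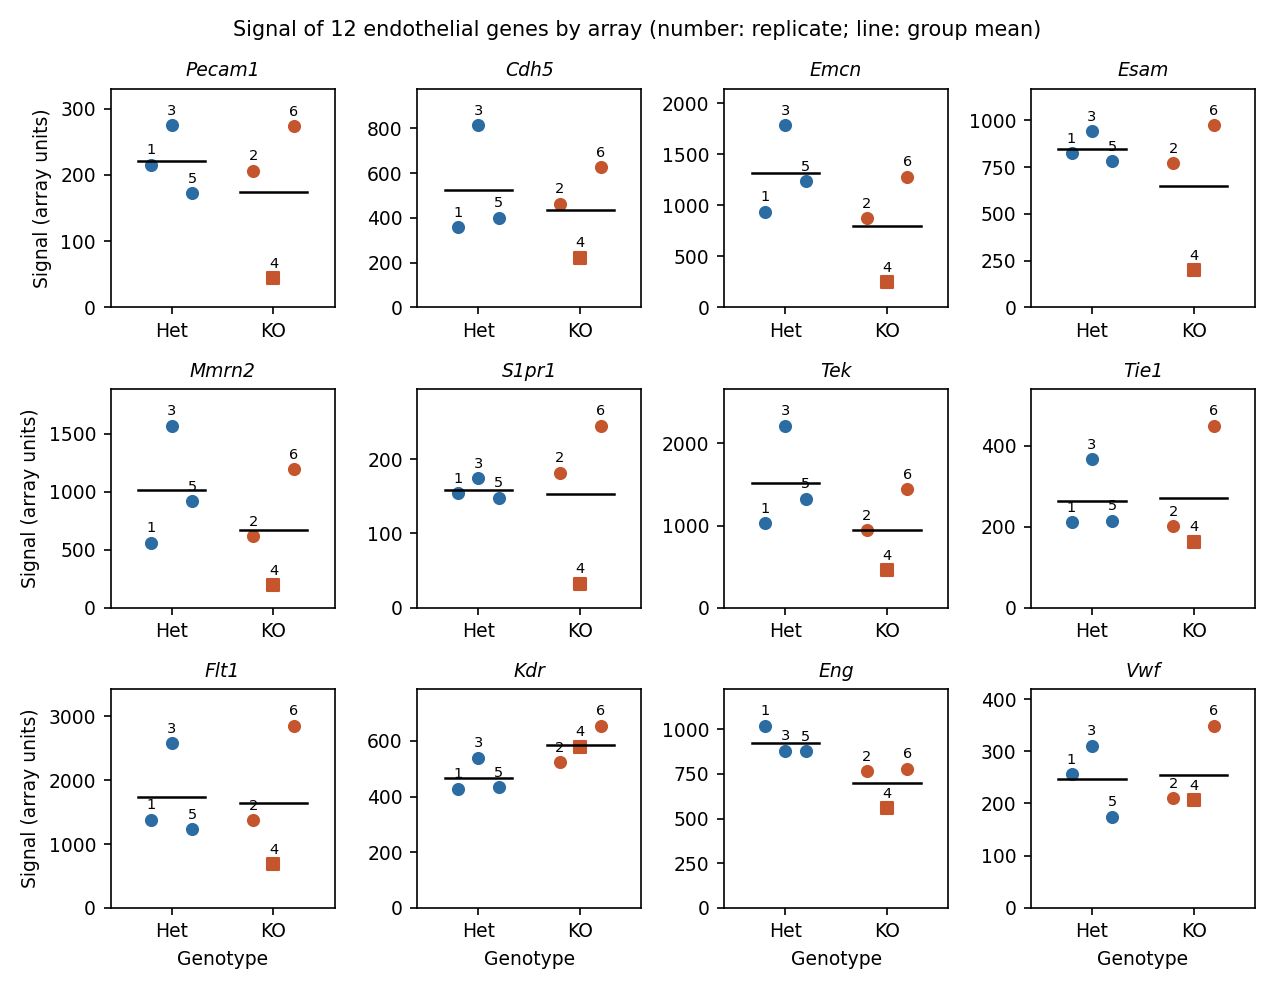
Signal in array units of 12 endothelial genes in each array, with heterozygous (Het) arrays in blue, knockout (KO) arrays in orange, knockout replicate 4 as a square and a black line at each group mean. Replicate 4 is the lowest array for all 12 except Kdr and Vwf.

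The members also stood high together in 2 other arrays, 1 of each genotype. Heterozygous replicate 3 had a median deviation of 0.66 and knockout replicate 6 one of 0.56, against 0.01 and 0.00 for all named genes. No member lay below the other arrays in heterozygous replicate 3, and 1 did in knockout replicate 6. Within genotype, 36 of 39 were highest of the heterozygous arrays in replicate 3, by a median of 0.57 over the others, and 36 of 39 were higher in knockout replicate 6 than in replicate 2, by a median of 0.50. The corresponding medians of all named genes were -0.00 and -0.02. Heterozygous replicate 3 was the highest array for 26 members and knockout replicate 6 for 10. The summed signal of the 39 genes was 31082, 50852 and 35015 in the heterozygous arrays and 32530, 18588 and 46861 in the knockout arrays, so the sums of the 2 genotypes overlapped.

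A shared drop did not take in all members equally. The deviations in replicate 4 spread from -2.20 to 0.18 with an SD of 0.61, against an SD of 0.23 to 0.39 on the other arrays. Over all named genes the SD was also widest in replicate 4, at 0.49 against 0.29 to 0.32, so a wider spread there was not particular to the members. Kdr, the main VEGF receptor of endothelial cells, was the only member above the other arrays there, at 0.18. Its signals were 429, 539 and 433 in heterozygous and 523, 579 and 654 in knockout arrays. The groups overlapped through heterozygous replicate 3 and knockout replicate 2, and knockout replicate 6 was the highest.

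Sox17, a transcription factor of arterial endothelium, read 532, 967 and 853 in heterozygous and 545, 646 and 894 in knockout arrays, at a deviation of -0.18 in replicate 4. Its lowest array was heterozygous replicate 1, and all 3 knockout arrays lay within the heterozygous range. Vwf, the von Willebrand clotting factor stored in endothelial granules, read 256, 310.3 and 175 against 209.5, 206 and 349, at -0.28. Knockout replicates 2 and 4 of Vwf were nearly equal and above heterozygous replicate 5. Erg, an ETS factor that maintains endothelial identity, read 106, 121 and 100.2 against 105, 83.4 and 131, with a deviation of -0.37. That holds for its brightest probe set only. The dimmer tested one of Erg read 65.0, 107 and 67.4 against 84.1, 18.5 and 71.1, at -1.44 in replicate 4. Tal1, a blood and endothelial transcription factor, read 162, 251 and 222 against 142, 145 and 216, with a deviation of -0.39. Knockout replicates 2 and 4 of Tal1 were both under every heterozygous array, whereas of Erg only replicate 4 was.

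Of the 40 genes, 20 had a promoter window in the RefSeq table (assembly GRCm38.p6), as 25 windows of 250 bases ahead of the transcript start. Both strands were searched for the ETS core GGAAG, which was present in 19 of 25 windows (76%), against 64.1% of 32851 windows of the same length in the table. The SOX core ACAAT was in 8 windows (32%, against 27.7%) and the GATA motif AGATAA in 2 (8%, against 9.99%). A match is a description of the letters and not a measured site. Shown are the windows of the member farthest down in replicate 4 (Emcn, chr3:137340828-137341077, plus strand), of the member not below the others there (Kdr, chr5:75978456-75978705, minus strand), of the member with the smallest p (Eng, chr2:32646345-32646594, plus strand) and of Tie1 (chr4:118489850-118490099, minus strand), which held 6 ETS cores, each read 5′ to 3′ toward the start with the ETS core or its reverse complement in capitals.
Emcn: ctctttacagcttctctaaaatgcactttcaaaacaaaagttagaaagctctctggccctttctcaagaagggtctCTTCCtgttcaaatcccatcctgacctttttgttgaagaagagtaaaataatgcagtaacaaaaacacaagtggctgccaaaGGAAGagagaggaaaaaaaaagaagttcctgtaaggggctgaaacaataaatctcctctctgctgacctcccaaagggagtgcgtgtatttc
Kdr: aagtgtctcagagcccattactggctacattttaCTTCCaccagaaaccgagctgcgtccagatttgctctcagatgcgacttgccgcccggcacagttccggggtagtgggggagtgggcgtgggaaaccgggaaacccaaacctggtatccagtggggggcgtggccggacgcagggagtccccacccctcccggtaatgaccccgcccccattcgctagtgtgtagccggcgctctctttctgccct
Eng: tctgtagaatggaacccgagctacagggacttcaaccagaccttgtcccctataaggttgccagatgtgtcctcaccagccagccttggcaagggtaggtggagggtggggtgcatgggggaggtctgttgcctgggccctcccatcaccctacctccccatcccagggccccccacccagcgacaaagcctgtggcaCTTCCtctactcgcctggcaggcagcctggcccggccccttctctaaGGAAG
Tie1: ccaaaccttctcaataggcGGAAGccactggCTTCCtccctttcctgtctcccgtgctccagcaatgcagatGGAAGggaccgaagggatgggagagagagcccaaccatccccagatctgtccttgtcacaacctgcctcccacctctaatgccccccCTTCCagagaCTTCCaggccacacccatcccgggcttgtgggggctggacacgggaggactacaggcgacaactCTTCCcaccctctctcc
Emcn and Eng held 2 cores each and Kdr held 1.

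Tested between the genotypes on all 6 arrays, 0 of the 58 member probe sets were called by limma (smallest adjusted p = 0.390), where 0.0037% of all probe sets tested were called. At an unadjusted p under 0.05 there were 3 of 58 (5.17%), fewer than the 11.7% of all probe sets. These were 2 probe sets of Eng, both lower, and 1 of Egfl7, higher. Without knockout replicate 4, 0 of 58 were called (smallest limma adjusted p = 0.679, 0.0481% of all called), and 0 had an unadjusted p under 0.05, against 8.28% of all. On all 6 arrays, a limma fit without variance moderation called 0 of 58, with 0 at an unadjusted p under 0.05, against 0% and 6.1% of all probe sets. With array weights, which give a deviating array less influence, the member counts were again 0 and 0, against 0.0851% and 14.1% of all. Leaving out knockout replicate 6 instead, in which the members stood high, gave 22 of 58 at an unadjusted p under 0.05, all lower, against 19.5% of all probe sets, with a smallest limma adjusted p of 0.147.

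In direction, 37 of the 39 genes (94.9%) were lower in the mean of the knockout arrays, against 56.9% of all named genes, with a median log2 difference of -0.34 (knockout minus heterozygous, against -0.04 for all). Without replicate 4, 17 of the 39 (43.6%) were lower, against 50.6% of all named genes, and the median was 0.04 (all genes -0.00). That median had no settled sign, being -0.19 when knockout replicate 6 was also left out, 0.31 when knockout replicate 2 was, and -0.04 after quantile normalisation. A change from lower to higher was seen in 20 genes, while 17 were lower in both fits and Kdr and Vwf were higher in both. Differences between -0.25 and 0.25 were found for 11 genes with all arrays and for 30 without replicate 4. Neither these counts nor those of genes that kept or changed direction were made over all named genes. The median standard error of a member was 0.39 with all arrays and 0.26 without replicate 4, against 0.19 and 0.18 over all named genes, so the members had the larger errors. The count of 17 itself rested on few arrays: leaving out knockout replicate 6 as well made it 32, and leaving out knockout replicate 2 as well made it 5, with a single knockout array left in either case.

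**Figure D3:**
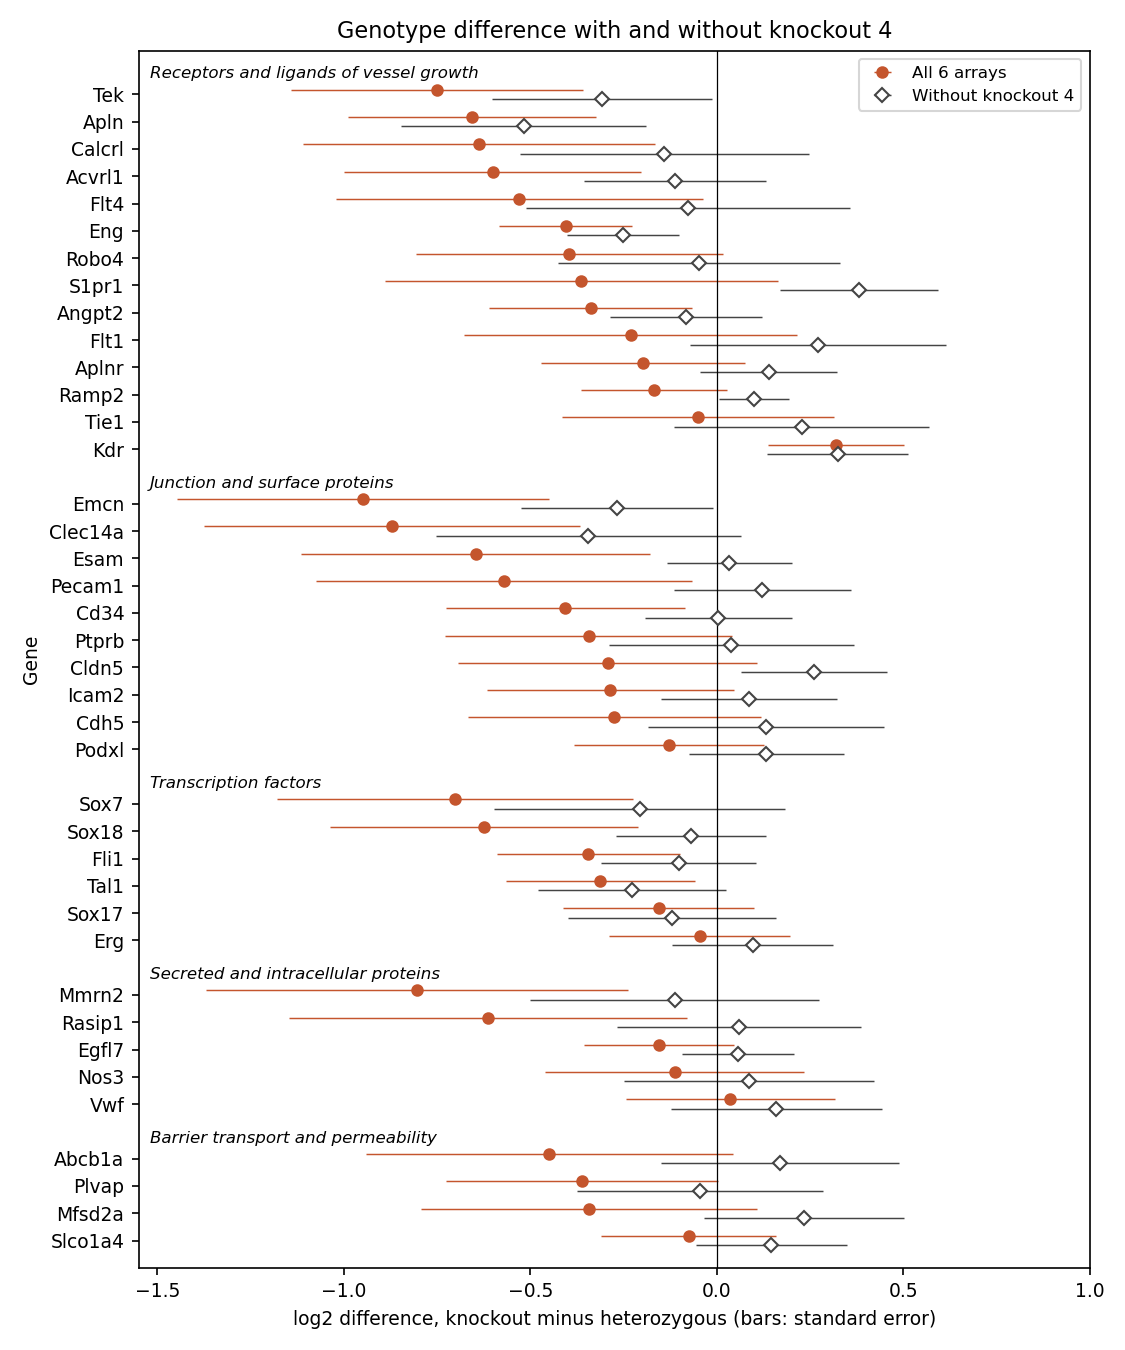
The log2 difference of each of the 39 endothelial genes (knockout minus heterozygous), with bars of 1 standard error from limma, for all 6 arrays (filled circles) and without knockout 4 (open diamonds), grouped by role. With all arrays 37 genes lie left of 0, and without knockout 4 there are 17.

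Among the 14 receptors and ligands of vessel growth, 13 were lower with all arrays and 8 without replicate 4, with medians of -0.38 and -0.06, and replicate 4 was the lowest array for 13. Eng (endoglin, a TGF-beta co-receptor mutated in hereditary haemorrhagic telangiectasia) had the smallest p of the genes here. It gave 1019, 879 and 877 in heterozygous and 767, 558 and 778 in knockout arrays. Every knockout array lay under every heterozygous one, replicates 2 and 6 only a little. The log2 difference was -0.41 ± 0.18 (SE) and the limma adjusted p 0.423, and without replicate 4 it was -0.25 ± 0.15 with an adjusted p of 0.743. Its second tested probe set differed by -0.56 with all arrays and by -0.38 without replicate 4. Separate groups were found for 2 members (5.13%), Eng and Angpt2, against 13.1% of all named genes.

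Angpt2, the angiopoietin that competes at TIE2, was separate by a narrow margin, at 121, 114 and 110.4 against 109.6, 56.6 and 106. Its difference of -0.34 ± 0.27 (SE) became -0.08 ± 0.20 without replicate 4. Tek, with the values above, had -0.75 ± 0.39 with all arrays and -0.31 ± 0.29 without replicate 4. Tie1, the orphan partner of TIE2, read 211, 367 and 214 in heterozygous and 201, 162 and 449 in knockout arrays. Knockout replicate 6 was its highest array, replicates 2 and 4 lay under the heterozygous range, and its difference was -0.05 ± 0.36. Kdr was the one receptor that was higher, by 0.32 ± 0.18 with all arrays (limma adjusted p = 0.528) and 0.32 ± 0.19 without replicate 4 (adjusted p = 0.732). Thus of the 3 VEGF receptors, by their brightest probe sets, Kdr was higher in both fits and Flt1 went from -0.23 to 0.27. Flt4, which binds VEGF-C, went from -0.53 to -0.08. The second tested probe set of Flt4 went from -0.11 to 0.18. The other tested ones of Flt1 went from -0.22 to -0.22, from -0.23 to 0.11 and from 0.21 to 0.29. None of these differences passed the test.

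Apln, the peptide ligand made by growing capillary tips, was the dimmest member, at 43.9, 110.4 and 69.7 in heterozygous and 36, 29.4 and 54.3 in knockout arrays. Knockout replicates 2 and 4 lay under all heterozygous arrays and replicate 6 among them. Its difference moved little without replicate 4, from -0.66 ± 0.33 to -0.52 ± 0.33 (limma adjusted p = 0.475 and 0.769). Its receptor Aplnr, the brightest member, went from -0.20 to 0.14. Calcrl and Ramp2, which together form a receptor for adrenomedullin, went from -0.64 to -0.14 and from -0.17 to 0.10. The BMP receptor Acvrl1 (ALK1), a partner of Eng, went from -0.60 to -0.11, and the guidance receptor Robo4 from -0.40 to -0.05. S1pr1, at -0.36 ± 0.53 with all arrays and 0.38 ± 0.21 without replicate 4, changed the most of the 14 between the fits.

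All 10 junction and surface proteins measured were lower with all arrays, and 2 were lower without replicate 4, with medians of -0.37 and 0.06. Replicate 4 was the lowest array for all 10, at a median deviation of -1.37, the furthest down of the 5 roles. The 2 that stayed lower were Emcn, at -0.95 ± 0.50 and then -0.27 ± 0.26, and Clec14a, a lectin-like protein of angiogenic endothelium. Clec14a read 345, 858 and 333 in heterozygous and 253, 111 and 514 in knockout arrays. Its knockout replicates 2 and 4 were under every heterozygous array and replicate 6 was among them, and its difference went from -0.87 ± 0.50 to -0.34 ± 0.41. Pecam1 went from -0.57 ± 0.50 to 0.12 ± 0.24, Cdh5 from -0.27 to 0.13, Cldn5 from -0.29 to 0.26 and Esam from -0.65 to 0.03. Icam2, Cd34, Podxl and Ptprb (VE-PTP, the phosphatase that holds VE-cadherin and TIE2 in check) had differences between -0.41 and -0.13 with all arrays and between 0.00 and 0.13 without replicate 4. Cd34 and Podxl are not restricted to endothelium.

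The 6 transcription factors lay less far down in replicate 4, at a median deviation of -0.59, and it was the lowest array for 4 of them. All 6 were lower with all arrays (median -0.33) and 5 without replicate 4 (median -0.11). By their brightest probe sets, the 3 SOXF factors were among those lower in both fits. The second tested probe set of Sox17 was higher in both, by 0.13 and 0.31. Sox7 read 325, 767 and 478 in heterozygous and 275, 142 and 652 in knockout arrays. Knockout replicate 2 lay under the heterozygous range too, and the difference of Sox7 went from -0.70 ± 0.48 to -0.21 ± 0.39. Sox18 had deviations of -1.71 in replicate 4 and Sox17 of -0.18, and their differences were -0.62 and -0.16 with all arrays and -0.07 and -0.12 without. The ETS factors Fli1 and Erg differed by -0.34 and -0.05 and then by -0.10 and 0.10, and Tal1 by -0.31 and -0.23.

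Of the 5 secreted and intracellular proteins, 4 were lower with all arrays and 1 without replicate 4 (medians -0.15 and 0.06). Mmrn2 went from -0.80 ± 0.57 to -0.11 ± 0.39. Rasip1, a RAS-interacting protein needed for vessel lumens, had a deviation of -1.98 in replicate 4 and went from -0.61 to 0.06. Nos3, the endothelial nitric oxide synthase, had its lowest signal in heterozygous replicate 1, at 50.9, beside 51.8 in knockout replicate 4, and differed by -0.11 and 0.09. Vwf differed by 0.04 and 0.16, and Egfl7, a secreted vessel protein, by -0.15 and 0.06.

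The 4 genes of barrier transport and permeability were all lower with all arrays (median -0.35) and 1 without replicate 4 (median 0.16). Slco1a4, an organic anion transporter of the blood-brain barrier, read 2089, 3696 and 2677 in heterozygous and 2802, 1910.2 and 3298 in knockout arrays. Replicate 4 was lowest by a small margin and the groups overlapped. Abcb1a, the efflux pump P-glycoprotein, had a deviation of -1.75 in replicate 4 and went from -0.45 ± 0.49 to 0.17 ± 0.32. Mfsd2a, a lipid transporter that limits transcytosis, went from -0.34 to 0.23. Plvap, which forms the diaphragms of leaky capillaries, went from -0.36 to -0.05.

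To set a difference of single genes apart from the common one, the median deviation of the other members was taken off each gene in each array before the group difference was formed. These relative differences describe the members against each other and were not tested. With this centring, 24 of the 39 genes lay between -0.25 and 0.25, 10 were higher and 5 lower. The highest were Kdr at 0.75, Vwf at 0.46, Tie1 at 0.38, Erg at 0.38 and Slco1a4 at 0.35. The lowest were Emcn at -0.55, Clec14a at -0.47, Mmrn2 at -0.40, Tek at -0.36 and Sox7 at -0.30. By their brightest probe sets, the first 5 had deviations in replicate 4 of 0.18 to -0.70 and the last 5 of -1.51 to -2.20. Replicate 4 is itself 1 of the knockout arrays in the difference, and S1pr1, at -2.01 in that array, had a relative difference of 0.05, and Apln, at -0.72, one of -0.25. In the fit without replicate 4, Kdr was higher and Emcn, Clec14a, Tek, Sox7 and Mmrn2 lower. That fit is not centred on the other members and uses the same remaining arrays, so it is no separate check. Relative differences were not computed without replicate 4. Centring on all 6 arrays changed no relative difference by more than 0.07, and left 23 genes between -0.25 and 0.25, while 6 genes near 0 changed sign.

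Several probe sets were tested for 13 of the members, and those of 4 (Egfl7, Fli1, Flt1 and Sox17) differed in sign with all arrays. The brightest Egfl7 probe set read 578 in replicate 4 against 796 to 949.6 on the other arrays. Its dimmest tested one read 439 in replicate 4 against 175 to 308. The 2 probe sets thus ran in opposite directions in that array, and the dimmer one was the one with an unadjusted p under 0.05. For Flt1, 3 of 4 probe sets were lower and the dimmest was higher (0.21). Over all tested probe sets of members, 48 of 58 were lowest in replicate 4.

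Lists of the surrounding pathways held no gene called by limma with all arrays, and their medians lay nearer 0 than the -0.34 of the members. In the VEGF and angiopoietin system, 5 of 8 tested genes were lower and 3 higher, with a median of -0.11 in both fits. Vegfb read 874, 939 and 930 in heterozygous and 737, 773 and 618 in knockout arrays. Its groups did not overlap, and the difference was -0.36 with all arrays and -0.43 without replicate 4 (limma adjusted p = 0.413 and 0.517). Vegfc differed by -0.35 and -0.20. Vegfa, the main ligand of Kdr and Flt1, differed by 0.02 and -0.14.

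Of the Notch and ephrin genes of arterial endothelium, 11 of 12 were lower with all arrays and 9 of 12 without replicate 4, with medians of -0.26 and -0.14. Only 4 of these 12 had their lowest array in replicate 4. The Notch ligand Jag1 read 1233, 2141 and 2013 in heterozygous and 1141, 1294 and 1423 in knockout arrays. Knockout replicate 2 was the lowest and the groups overlapped through heterozygous replicate 1. Jag1 differed by -0.44 with all arrays and -0.45 without replicate 4 (limma adjusted p = 0.445 and 0.652), and the Notch target Hey2 by -0.30 and -0.33. Both are also expressed by other cells of the cochlea.

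BMP and TGF-beta signalling genes were divided, 5 lower and 5 higher with all arrays and 3 lower and 7 higher without replicate 4, with medians of 0.01 and 0.06. Tgfb1 differed by -0.33 and -0.10, and Bmpr2 by 0.10 and 0.07. Among Wnt-driven barrier genes 9 of 16 were lower with all arrays and 2 of 16 without replicate 4, with medians of -0.10 and 0.09. Lrp5, a Wnt co-receptor, differed by -0.48 and -0.22, and the lactate transporter Slc16a1 by 0.19 and 0.21. Slc2a1, the glucose transporter GLUT1, which is also made by other strial cells, differed by 0.01 in both fits. Of other endothelial genes outside the 40, 20 of 28 were lower with all arrays (median -0.25) and 14 of 28 without replicate 4 (median 0.00), and 20 of the 28 were lowest in that array. Their median deviation in replicate 4 was -0.74, and 23 of the 28 lay below the other arrays. Arhgef15, an exchange factor of endothelial cells, went the other way. It read 198, 182 and 240.1 in heterozygous and 247, 614 and 344 in knockout arrays, so replicate 4 was its highest and the groups did not overlap. The difference was 0.82 with all arrays and 0.48 without replicate 4 (limma adjusted p = 0.374 and 0.615). Gata2 differed by -0.33 and -0.41.

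Markers of some other cell types were low with the endothelial genes in replicate 4. Of the tested pericyte and smooth muscle markers 11 of 12 were below the other arrays there, at a median deviation of -0.75. Their summed signal was 12079 to 15214 in heterozygous arrays and 12536, 8038 and 14400 in knockout replicates 2, 4 and 6. Smooth muscle actin, Acta2, read 428, 352 and 417 in heterozygous and 220.4, 79.9 and 88.8 in knockout arrays. Unlike most members it was also low in knockout replicate 6, and its difference was -1.63 with all arrays and -1.39 without replicate 4 (limma adjusted p = 0.349 and 0.353). The pericyte genes Rgs5 and Pdgfrb differed by -0.19 and 0.16 with all arrays and by 0.06 and 0.24 without replicate 4. Des, a filament protein of smooth muscle and pericytes, differed by -1.13 and -0.47, with a signal of only 4.87 in replicate 4.

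Granulocyte markers lay lower still in that array, with 4 of 4 tested below the others at a median deviation of -2.27. Their sum was 970.0 to 3528 in heterozygous arrays and 1909, 296 and 1425 in the knockout arrays. Macrophage markers lay below in 10 of 12 (median -0.35), with sums of 9008 to 12054 in heterozygous and 13459, 9625 and 11995 in knockout arrays. None of the tested markers of these 3 lists was at 0 in replicate 4, which does not show that their cells were present. The lowest there, Des at 4.87 and Ngp at 5.18, lay under the filter signal of 46.3. Vessel basement membrane genes lay below in 6 of 8 (median -0.42). Their sum of 27047 in replicate 4 was within the heterozygous range of 26448 to 30893, but Sparc made up 15292 of it. Sparc and Hspg2 lay above the other arrays there, at 0.38 and 0.29, whereas Col4a1, Col4a2 and Lama4 were at -0.99, -1.02 and -1.36. Nid1, Lamb1 and Nid2 were at -0.26, -0.27 and -0.58. In the genotype difference 5 of these 8 were lower with all arrays (median -0.15) and 1 without replicate 4 (median 0.11). Sparc and Hspg2, the 2 with the smallest p and both matrix genes also made outside vessels, were higher by 0.21 and 0.32 with all arrays.

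Markers of marginal, basal and intermediate cells of the stria did not follow as lists, though single genes did lie below. The median deviation in replicate 4 was 0.13 for 6 marginal cell markers, 0.15 for 5 basal cell markers and -0.12 for 8 intermediate cell markers. Of these, 2 marginal, 1 basal and 5 intermediate cell markers lay below the other arrays. Bone and cartilage markers lay high, at 0.84 over 10 genes. They were at 0.95 in knockout replicate 6, so this was not particular to replicate 4. Their sums were 10631 to 12775 in heterozygous and 15966, 20266 and 18464 in knockout arrays. The 7 fibrocyte markers were at -0.31 in replicate 4. The part of these other cells in the endothelial values was not tested. Only 2 platelet, 2 erythrocyte and 2 lymphatic markers passed the filter, and 0 lymphocyte markers.

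**Figure D4:**
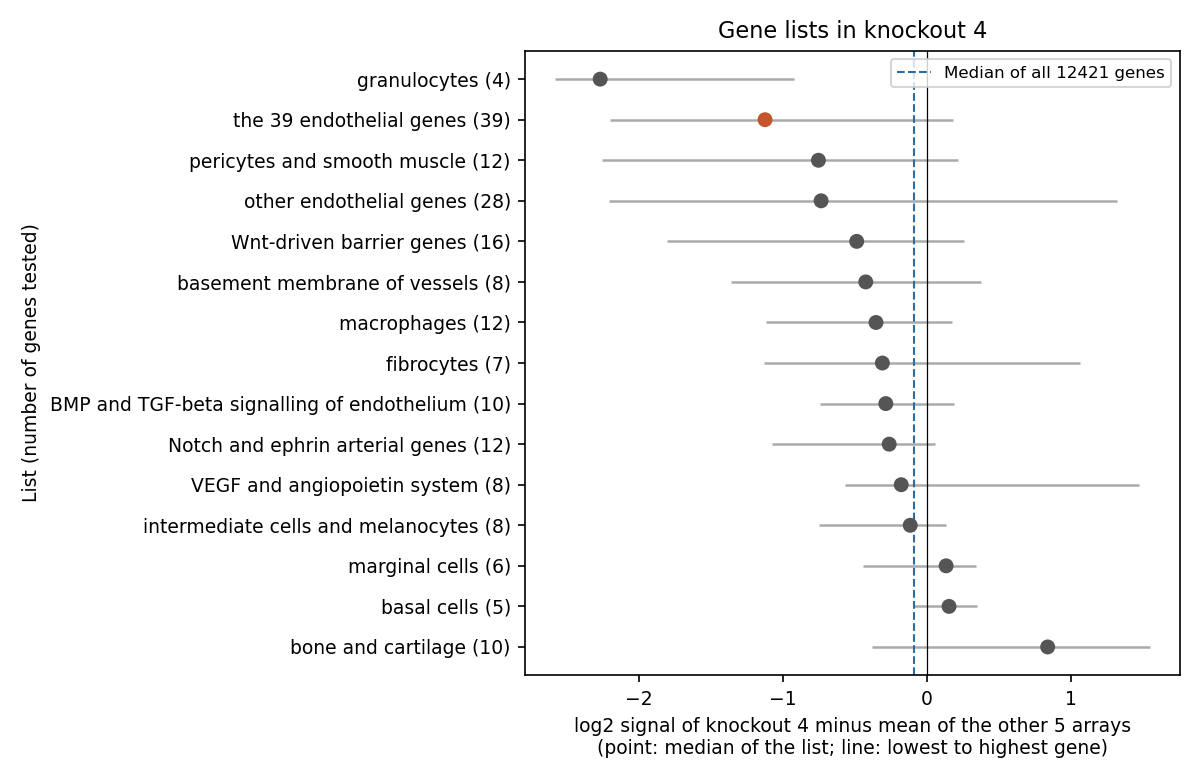
For the 39 endothelial genes and each list of pathway or other cell type genes with at least 4 tested, the point is the median and the line the range of log2 signal in knockout 4 minus the mean of the other 5 arrays, with the dashed line at the median of all 12421 genes (-0.09). Granulocyte markers (-2.27), the 39 endothelial genes (-1.12) and pericyte and smooth muscle markers (-0.75) lie lowest of the lists drawn, which leave out subsets of the 39. Other endothelial genes (-0.74) lie next to them, and bone and cartilage markers (0.84) lie highest.

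The 8 genes outside the 40 that were farthest down in replicate 4 were Rarres1, Csn3, Ndufa4l2, Ngp, S100a9, Ikzf1, Igfbp7 and Ptgs2, at deviations from -2.97 to -2.27. Ngp and S100a9 are granulocyte genes, and Ikzf1 is a transcription factor of blood cells. Igfbp7, a secreted protein abundant in vessel walls, read 5819, 7821 and 6077 in heterozygous and 6016, 1291 and 6504 in knockout arrays. Without replicate 4 its arrays overlapped, and its difference went from -0.81 to -0.06.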

How the data were processed

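Stria vascularis RNA was extracted with a Qiagen kit, amplified and labelled by the NuGEN Ovation method and hybridised to Affymetrix mouse 430 2.0 arrays, per the labels' protocols. The authors deposited linear signal intensity from GCOS, whose release is not given in the sources used here, per the submitters' processing notes. With 2% trimmed at either end, every array had a mean of 500.002, so a common scale had been set before deposit and was kept. Genotype and replicate number come from the sample titles.

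The 64 control probe sets were left out. Signals were transformed as log2(signal + 16), which understates the differences of dim genes. Probe sets with a mean under the 40th percentile (46.3) were removed. The fit used limma 3.58.1 (R 4.3.3), with lmFit and trended eBayes, two-sided, adjusted by Benjamini-Hochberg over all 27022 at a threshold of 0.05, on all arrays and without knockout replicate 4. The code was tested on simulated data. Values after ± are standard errors. The number of arrays limits the precision.

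Genes were named from the platform annotation, in which 34945 probe sets had 1 symbol, 932 several and 9160 none. All 65 member probe sets matched RefSeq by identifier and symbol. The members and lists were chosen with earlier results of these data known, so nothing here is independent support for a pattern already seen in them. Values in every array are given for members with an unadjusted p under 0.05, the 5 lowest and 5 least low in knockout replicate 4, the 5 largest relative differences either way, and Pecam1, Cdh5, Kdr, Flt1, Tek and Cldn5. They are also given for Angpt2 and Apln, which met none of these rules. Cd34, Nos3 and other members were described by role. Of each list up to 2 genes with the smallest p were named, and Vegfa, Slc2a1, Rgs5, Pdgfrb and Prox1 were picked after their values were seen. Beyond that rule, all 8 vessel basement membrane genes were named. Alternatives were other offsets, a floor, normalisations, filters, variance options, probe set rules and each array left out. Plots came from matplotlib 3.10.9 (Python 3.11.15).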

Additional observations from a re-analysis of the deposited data

How the results depend on the processing

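No paired analysis was possible because the genotypes share no replicate numbers. The median difference of the 39 genes was -0.39 to -0.33 over the other settings and -0.69 to 0.04 when an array was left out, and the only positive value came without knockout replicate 4. The median deviation of that array was -1.25 to -0.97 over all alternatives. The number of genes lower was 17 to 38 leaving out an array, and without knockout replicate 4 it was 5 to 32 when another array was also left out. Called probe sets were 0 under every alternative run, and those at an unadjusted p under 0.05 were 0 to 22 leaving out an array, 0 with array weights (14.1% of all probe sets) and 0 without variance moderation (6.1% of all). Without knockout replicate 4 the median ran from -0.04 to 0.09 over other settings, and from -0.19 to 0.31 with another array left out. Of 773 values of single genes, 44 reversed and 0 passed the threshold. With array weights the differences of Flt1 (0.10), Tie1 (0.071), Cldn5 (0.12), Erg (0.049), Ramp2 (0.017), S1pr1 (0.12) and Slco1a4 (0.020) turned positive. With the probe set of lowest variance those of Flt1 (0.21), Egfl7 (0.18) and Fli1 (0.14) did, and with the mean of its probe sets that of Egfl7 (0.12). Quantile normalisation turned Vwf to -0.067. Leaving out an array reversed 22 genes, 13 of them only without knockout replicate 4, with ranges of Pecam1 -1.01 to 0.12, Cdh5 -0.58 to 0.13, Flt1 -0.74 to 0.27, Tie1 -0.46 to 0.23, Cldn5 -0.60 to 0.26, Esam -1.07 to 0.033, Egfl7 -0.27 to 0.056, Vwf -0.20 to 0.21, Cd34 -0.69 to 0.0036, Icam2 -0.53 to 0.086, Erg -0.19 to 0.10, Sox17 -0.41 to 0.014, Ptprb -0.74 to 0.039, Nos3 -0.38 to 0.19, Ramp2 -0.31 to 0.10, Rasip1 -1.08 to 0.059, S1pr1 -0.84 to 0.38, Slco1a4 -0.27 to 0.15, Abcb1a -1.04 to 0.17, Mfsd2a -0.70 to 0.23, Podxl -0.39 to 0.13 and Aplnr -0.52 to 0.14. The causes of these reversals were not tested beyond the arrays and settings named.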
